A study of Homo sapiens with 4 samples.

Results

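J-domain co-chaperones are the partners that bring substrates to HSP70 chaperones and set their cycle of ATP use. Members were transcripts whose GENCODE 29 symbol is DNAJA, DNAJB or DNAJC followed by a number. The 7 genes DNAJB1, DNAJB9, DNAJB11, DNAJC3, DNAJC10, DNAJA3 and DNAJC19 were left out by the rule. Of 36 matching symbols, 34 were listed in at least 1 library, among 16292 transcripts in all, and 24 passed the minimum mean of 5 RPKM among 9612 genes. DNAJB3 and DNAJB8 were not listed in any library.

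The data are ribosome footprints, the mRNA pieces that a translating ribosome covers, from HEK293, an established human embryonic kidney cell line. The 4 groups were wild type without erythromycin, wild type with erythromycin, RPL4 mutant without erythromycin and RPL4 mutant with erythromycin, with 1 library each. RPL4 is a large-subunit ribosomal protein with a loop in the peptide exit tunnel, and erythromycin is a macrolide antibiotic that binds the tunnel of bacterial ribosomes. The protocol shared by all groups describes stable lines that carry GFP, normal L4 or L4 with its loop deleted, infected with lentivirus for a hairpin that targets RPL4 or for a scrambled hairpin. The labels do not say which construct, hairpin or ribosome-holding drug each library had. They also do not say whether a line was 1 clone, or the dose of erythromycin. Since no group had a second library, the intervals below cover counting error only and no spread between cultures, and reads copied by PCR are not independent molecules. Each library pools many cells, so a change in some cells and a change in all cells cannot be told apart, nor can mRNA level and translation.

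The J domain is a short helical bundle with a loop of histidine, proline and aspartate, known as HPD, that triggers ATP hydrolysis by HSP70. Class A proteins add a glycine-rich stretch and a zinc-finger region, class B proteins a glycine-rich stretch alone, and class C proteins share only the J domain and differ in everything else. DNAJC2, also called MPP11 or zuotin, binds the ribosome near the tunnel exit together with the HSP70-like protein HSPA14 and meets the nascent chain there. The other members were grouped by their usual place in the cell, and these classes were used throughout.

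The J domain could be read from the coding sequence of each counted transcript. In-frame HPD codons (CAC or CAT, then CCN, then GAC or GAT) occurred once in 33 of 34 members, and DNAJB13, a protein of ciliary axonemes, had none. The stretches below are shown for DNAJC2 and for the members that the results turn on. Each is 39 bases of GENCODE 29 transcript, 5′ to 3′, with the HPD codons in capitals.
DNAJC2: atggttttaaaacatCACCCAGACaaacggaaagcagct
DNAJA1: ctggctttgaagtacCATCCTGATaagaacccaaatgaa
DNAJA2: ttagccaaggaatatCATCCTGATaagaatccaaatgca
DNAJB6: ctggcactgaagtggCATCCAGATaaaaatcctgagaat
DNAJC7: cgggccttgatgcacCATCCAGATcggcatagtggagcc
DNAJC8: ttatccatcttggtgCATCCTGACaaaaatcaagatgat
DNAJC24: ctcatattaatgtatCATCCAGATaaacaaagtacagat

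In GRCh38 the DNAJC2 stretch lies at chr7:103327708-103327746, minus strand, in exon 4 of 17. That of DNAJA1 lies at chr9:33026569-33026607, plus strand, exon 2 of 9, and that of DNAJA2 at chr16:46971905-46971943, minus strand, exon 2 of 9. That of DNAJB6 lies at chr7:157363171-157363209, plus strand, exon 3 of 10, and that of DNAJC8 at chr1:28210599-28210637, minus strand, exon 4 of 9. The DNAJC7 stretch joins exons 11 and 12 of 14, and the DNAJC24 stretch exons 2 and 3 of 5.

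The HPD loop sat early in most of these coding sequences, within the first 100 codons in 21 of the 33. In class A and B proteins of cytosol and nucleus its median position was codon 33, and in the class C proteins of the same place codon 42.5. DNAJC2 carried it at codon 119 of 621, DNAJA1 at codon 34 of 397 and DNAJC7 at codon 409 of 494. DNAJC6, whose J domain is at the far end, carried it at codon 934 of 970. The repeated cysteine and glycine codons of the zinc-finger region (CXXCXGXG) were found in DNAJA1, DNAJA2 and DNAJA4, with 3 exact repeats each, and in 0 of the other 31 members.

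Footprints on the family were spread very unevenly. The 34 members took 5181 of 2965243 reads in wild type without the drug and 5165 of 2555613 with it, against 964 of 604506 and 1675 of 993461 in the mutant. As shares these were 0.175% (95% Wilson interval 0.170% to 0.180%) and 0.202% (0.197% to 0.208%) in wild type, against 0.159% (0.150% to 0.170%) and 0.169% (0.161% to 0.177%) in the mutant. DNAJC8, DNAJA1 and DNAJC7 alone held 44.5%, 48.2%, 40.5% and 40.9% of these reads in the 4 groups as listed above. Per kilobase, the nuclear splicing-associated DNAJC8 ranked first in all 4 libraries.

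**Figure D1:**
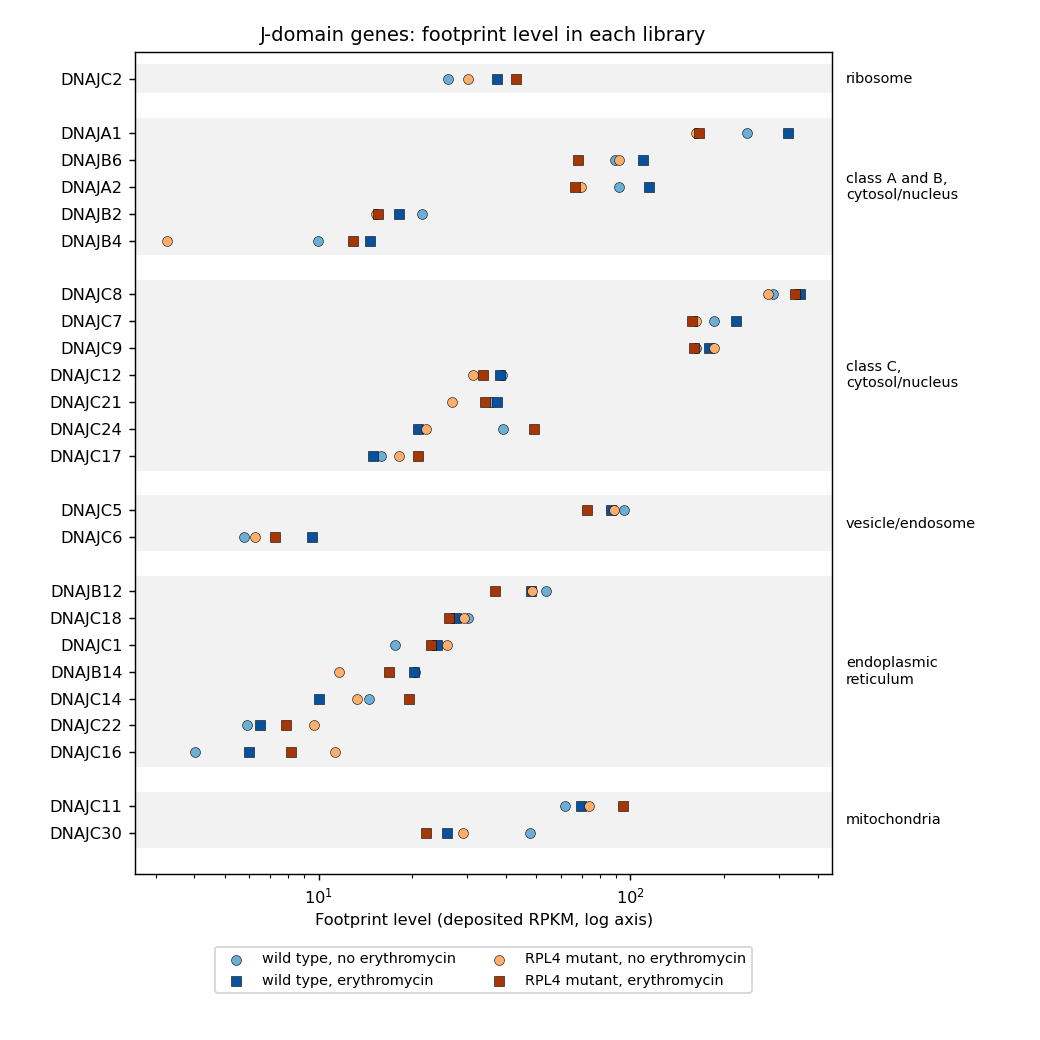
Footprint level in deposited RPKM (log axis) of the 24 members with a mean of at least 5 RPKM, by class, with 1 point per library and no error bar since no group had a replicate. DNAJC8 lies highest in every library, and the mutant without erythromycin gives the lowest point of all for DNAJB4, at 3.26 RPKM.

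Depth limits the mutant most. The median tested member had 96, 89, 22 and 39 reads in the order of groups above, and the median of all tested genes was 107, 90, 22 and 39. Of the 24, 12 had fewer than 20 reads in the mutant without erythromycin. Of 8 markers fixed for HEK293, 7 were at 1 RPKM or more in each library (NEFM was the exception), with sums of 1696, 1917, 1367 and 1155 RPKM in the order of groups above. The 12 markers of other cell types summed to 4.99 to 11.9 RPKM, and between 6 and 9 of them were at 0. RPL4 itself was at 2515, 2586, 1707 and 1439 RPKM in the order of libraries given above, and fell in the mutant over both treatments (log2 estimate −0.77, SE 0.15, limma, adjusted p = 0.0109). A transgene copy would be read as RPL4 too, so this checks the labels only in part.

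In what follows, 4 values in a row are RPKM in wild type without and with erythromycin and then in the mutant without and with it. Differences are log2 ratios of RPKM plus 1, centred on the median tested gene, with the 95% counting interval of the read ratio in brackets. A member is counted as beyond counting error where that interval leaves out 0.

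DNAJC2, the ribosome-tethered member, had more footprints with erythromycin in both genotypes. Its levels were 26.0, 37.3, 30.1 and 43.2 RPKM, from 144, 178, 34 and 80 reads. Both libraries with the drug lay above both without it. Erythromycin over none was 0.52 [0.21, 0.86] in wild type cells and 0.45 [−0.13, 1.09] in mutant cells, so that the wild type difference was beyond counting error and the mutant one was not. The ratio of mutant to wild type was 0.23 [−0.35, 0.78] drug-free and 0.14 [−0.25, 0.54] under erythromycin, and the responses of the genotypes differed by −0.07 [−0.74, 0.58]. The limma model over both genotypes did not pass for erythromycin (log2 estimate 0.48, SE 0.271, limma, adjusted p = 0.907). Of the coding sequence, 12.2% overlaps exons of PMPCB on the opposite strand, whose reads cannot be told apart from those of DNAJC2 unless counting used strand, which is not given in the sources used here.

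The erythromycin ratios of other factors that meet nascent chains stood below those of DNAJC2. HSPA14, the HSP70-like partner in the complex, was at 59.7, 65.0, 49.7 and 48.7 RPKM, with 0.13 [−0.12, 0.39] for erythromycin in wild type, −0.08 [−0.63, 0.48] in the mutant, and −0.47 [−0.87, −0.10] for mutant over wild type with the drug. Of 7 other nascent-chain factors listed, 6 were tested (NACA, BTF3, NAA10, NAA15, METAP1 and METAP2). With erythromycin their median was 0.13 in wild type and −0.18 in the mutant. In the mutant 6 of 6 were below 0, as were 50.0% of all genes. Beyond counting error there were 0 of the 6, where 7.22% of all tested genes were higher and 7.69% lower. The point value of DNAJC2 lay above the highest of the 6 in both genotypes, which were at 0.20 and −0.15. Counting intervals of the 6 overlap that of DNAJC2 in the mutant, and in wild type all but those of BTF3 and NAA10 do. Among tested members, DNAJC6 (0.65) and DNAJB4 (0.53) stood above DNAJC2 in wild type, and DNAJB4, DNAJC24 and DNAJC14 did in the mutant. Mutant over wild type for the 6 nascent-chain factors had a median of −0.07 without and −0.33 with the drug. Without the drug 3 were below 0 and 2 were lower beyond counting error, where 9.3% of all genes were. With it 6 of 6 were below 0, and 5 were lower beyond counting error, where 16.9% of all genes were.

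**Figure D2:**
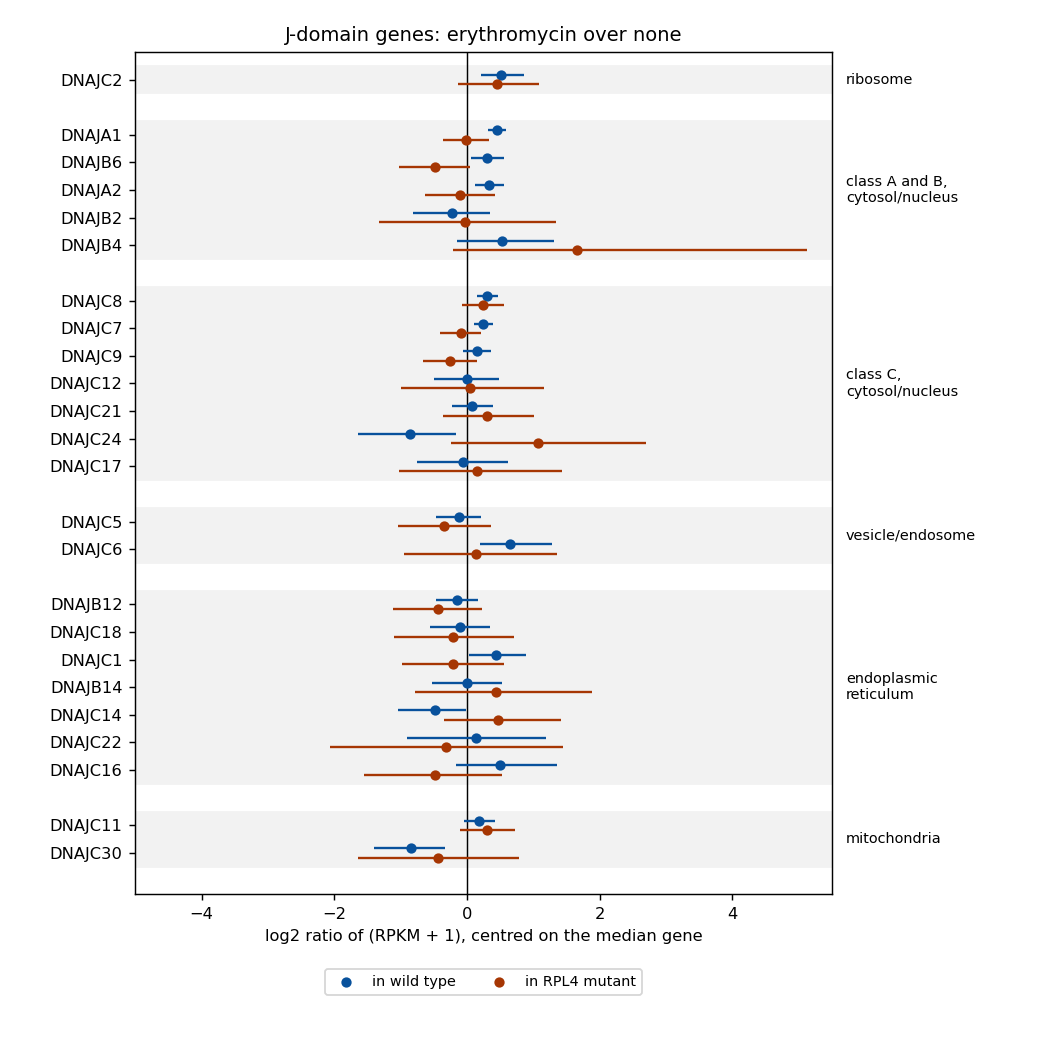
Erythromycin over none for each tested member, as log2 ratio of RPKM plus 1 centred on the median gene, in wild type (blue) and RPL4 mutant (brown), with bars for 95% counting intervals. DNAJC2 and DNAJC8 have points to the right in both genotypes, while DNAJA1, DNAJA2, DNAJB6 and DNAJC7 do so in wild type. In the mutant the interval includes 0 for each of the 24 members, DNAJC2 and DNAJC8 among them.

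In wild type cells more members were higher than lower with erythromycin. Of the 24, 15 were above 0, where 50.0% of all tested genes were, and the median was 0.14 against 0 for all genes by centring. With no filter on low values, 17 members were above 0 and 16 below, with a median of 0.03. Beyond counting error, 8 members (33.3%) were higher, where 14.2% of all tested genes were, and 3 (12.5%) were lower, where 13.9% were. The 8 were DNAJC2, DNAJA1, DNAJA2, DNAJB6, DNAJC7, DNAJC8, DNAJC1 and DNAJC6, and the 3 were DNAJC14, DNAJC24 and DNAJC30. None of the 24 reached 2-fold, where 1.73% of all genes were that much higher and 1.54% that much lower.

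In the mutant 11 members were above 0 and 13 below, where 50.0% of all genes were on each side, with a median of −0.03. Beyond counting error 0 of 24 were higher and 0 lower, where 7.22% and 7.69% of all tested genes were. DNAJB4 and DNAJC24 were at least 2-fold higher, where 6.22% of all genes were, on 2 and 6 reads without the drug, and both intervals reached below 0. None was 2-fold lower, where 3.39% of genes were. The signs matched between genotypes in 12 members, with 7 above 0 in both, where 25.3% of genes were, and 5 below, where 25.3% were.

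Class A and B proteins of cytosol and nucleus are the general co-chaperones of HSC70 and HSP70, and their 5 tested members had a median mutant to wild type ratio of −0.44 without and −0.74 with erythromycin. DNAJA1, the most abundant of them, was at 236, 319.5, 162 and 166 RPKM, from 837, 975, 117 and 197 reads. Both mutant libraries lay below both wild type libraries, and the highest value was wild type with the drug. Relative to wild type, the mutant gave −0.52 [−0.81, −0.24] in drug-free cells and −1.0 [−1.23, −0.78] in treated cells, beyond counting error in both. The second is at least 2-fold lower, where 2.26% of all genes were, and lay between −0.86 and −1.06 over the alternative settings. Erythromycin over none was 0.45 [0.32, 0.58] in wild type cells and −0.02 [−0.36, 0.32] in mutant cells, a difference of −0.47 [−0.83, −0.11]. DNAJA1 has 6 annotated pseudogenes, and how reads shared with them were assigned is not given in the sources used here.

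Over both treatments DNAJA1 had the lowest limma adjusted p of any tested member for the mutant, and it missed the threshold of 0.05 (log2 estimate −0.81, SE 0.223, limma, adjusted p = 0.0843). It passed with a pseudocount of 0.1 RPKM (adjusted p = 0.0431) and with a minimum mean of 1 RPKM (adjusted p = 0.0334), and without a variance trend it was at 0.400.

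DNAJA2, the close relative that also serves HSC70, was also lower in both mutant libraries than in both wild type libraries. It was at 91.7, 115, 69.4 and 66.6 RPKM, highest in wild type with the drug. Against wild type the mutant stood at −0.37 [−0.83, 0.05] drug-free and at −0.84 [−1.21, −0.50] under the drug (log2 estimate −0.66, SE 0.252, limma, adjusted p = 0.249). Erythromycin over none was 0.33 [0.12, 0.56] in wild type cells and −0.11 [−0.63, 0.42] in mutant cells, and the difference of −0.45 [−0.997, 0.09] was within counting error.

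DNAJB6, which keeps aggregation-prone proteins soluble, had its lowest level in the mutant under the drug. It was at 89.6, 109.8, 92.2 and 68.1 RPKM, so that the drug-free libraries lay close together. The ratio of mutant to wild type was 0.07 [−0.38, 0.49] drug-free and −0.74 [−1.16, −0.36] under erythromycin. Its response to the drug was 0.31 [0.06, 0.56] in wild type cells and −0.48 [−1.02, 0.05] in mutant cells, and these differed by −0.79 [−1.36, −0.24]. GENCODE 29 marks the counted transcript of DNAJB6 as a target of nonsense-mediated decay.

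DNAJB2 and DNAJB4 rest on few reads. DNAJB2, a co-chaperone with ubiquitin-binding motifs, was at 21.4, 18.1, 15.3 and 15.5 RPKM, and none of its ratios was beyond counting error. DNAJB4, a relative of the heat-shock protein DNAJB1, was at 9.98, 14.7, 3.26 and 12.9 RPKM from 30, 38, 2 and 13 reads. Its low value in the mutant without erythromycin gives −1.34 [−4.70, 0.39] for mutant over wild type and 1.65 [−0.21, 5.12] for erythromycin in the mutant, neither beyond counting error. Limma gave it the lowest adjusted p among members for erythromycin (log2 estimate 1.08, SE 0.408, limma, adjusted p = 0.644).

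Taken as a class, the 9 listed A and B members had a smaller share of reads in both mutant libraries. Wild type libraries had 0.0524% (0.0499% to 0.0551%) of reads on them without erythromycin and 0.0678% (0.0647% to 0.0711%) with it. Mutant libraries had 0.0399% (0.0351% to 0.0452%) and 0.0395% (0.0357% to 0.0436%). Centred on the median gene, the share with erythromycin over none was 0.39 [0.29, 0.49] on the log2 scale in wild type and −0.07 [−0.30, 0.17] in the mutant. The mutant share relative to wild type stood at −0.37 [−0.57, −0.17] drug-free and at −0.84 [−1.01, −0.68] under the drug. DNAJA1 alone gave 837 of 1554, 975 of 1733, 117 of 241 and 197 of 392 of these reads. The summed HEK293 markers were likewise highest in wild type with erythromycin and lower in both mutant libraries. VIM, which led the sum at 964, 1100.4, 744 and 637 RPKM, and KRT8 went this way, but not every marker did. SOX2 was at 38.5, 22.1, 24.3 and 11.6 RPKM, NEFL at 55.6, 51.3, 43.6 and 53.0, and EMX2 at 4.44, 5.67, 8.72 and 17.2. The part of the markers in the result was not tested.

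**Figure D3:**
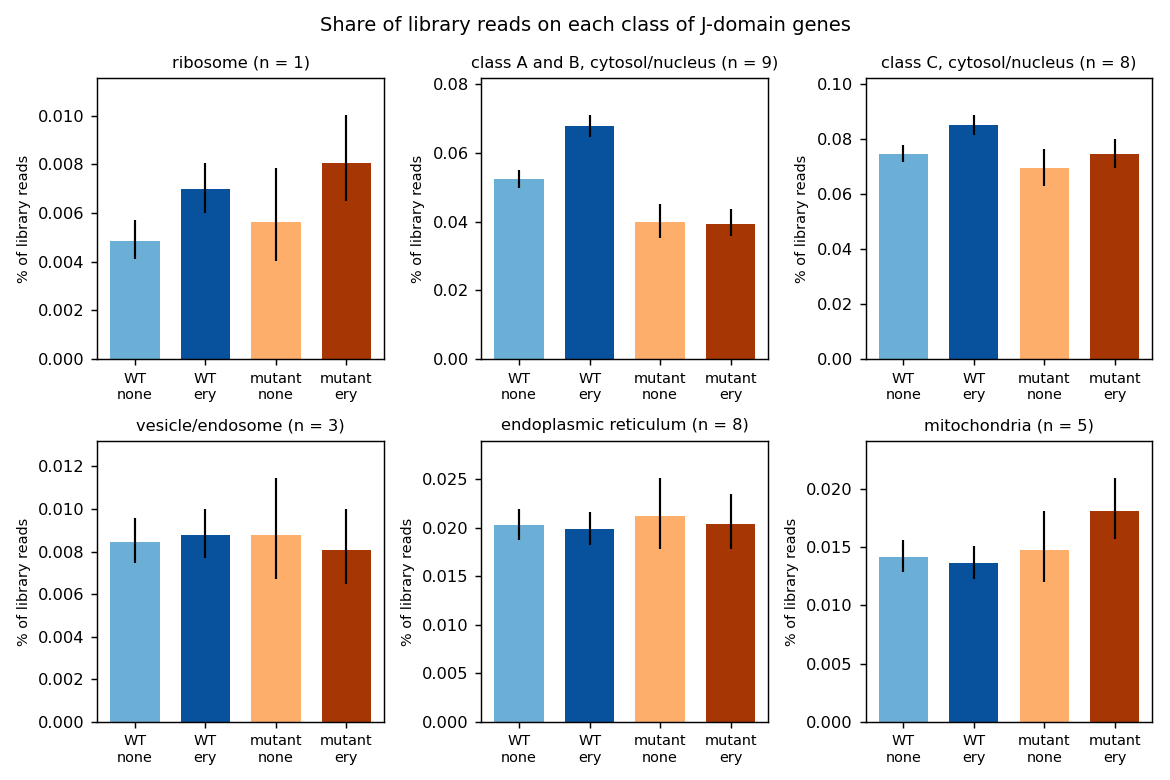
Percent of library reads on each class of J-domain genes, with 1 bar per library, 95% Wilson intervals as lines, and the number of listed genes in each title. For the class A and B genes the 2 mutant bars, at 0.0399% and 0.0395%, lie below both wild type bars, and for DNAJC2 the bars with erythromycin (ery) lie above those without.

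Promoters were searched for the heat-shock element because HSF1 targets include many chaperones. This element, the binding motif of HSF1, was sought in RefSeq promoters (GRCh38.p14, 250 bases before to 50 after each gene start) as GAANNTTCNNGAA on both strands. It occurred in DNAJA1 and DNAJB6 among 31 members with a promoter sequence (6.45%), and in 0.608% of 27305 genes in all. The shorter form of 2 units, GAANNTTC or TTCNNGAA, which the longer one contains, occurred in 22.6% of members and 16.2% of all genes. The longer form also occurred in HSPA6 and HSPA8, among 6 HSP70 genes with a promoter sequence (33.3%). HSPA6 was under the minimum mean, at 1.60 RPKM. Among 5 nascent-chain factors HYPK held the longer form (20.0%). It was in 0 of 8 nucleotide exchange factors of HSP70 and 0 of 1 HSP70 adaptor with a promoter sequence. The 7 J-domain genes left out by the rule gave 0, as did 4 under other symbols. DNAJB1, HSPA1A and HSPA1B held the shorter form and not the longer. The stretches of DNAJA1 and DNAJB6 below are 29 bases each on the plus strand with the motif in capitals.
DNAJA1: gccgggcgGAACTTTCCAGAAcgctcggt
DNAJB6: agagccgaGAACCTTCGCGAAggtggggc

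The first lies at chr9:33025268-33025296, with the motif 4 to 16 bases into the gene as counted from the RefSeq start. The second lies at chr7:157336865-157336893, with the motif 131 to 119 bases before the RefSeq start. The counted GENCODE 29 transcripts start elsewhere, at chr9:33025211 for DNAJA1 and chr7:157337023 for DNAJB6. DNAJA2 had no match in its window. A match is a description of the letters and not a measured binding site.

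Class C proteins of cytosol and nucleus had a median mutant to wild type ratio of −0.17 without and −0.18 with erythromycin over 7 tested members. DNAJC8, linked to splicing, was at 287, 351, 276 and 337 RPKM, with both libraries with erythromycin above both without. Erythromycin over none was 0.31 [0.15, 0.46] in wild type cells and 0.24 [−0.08, 0.55] in mutant cells. Relative to wild type, the mutant gave −0.03 [−0.32, 0.25] in drug-free cells and −0.12 [−0.34, 0.09] in treated cells. DNAJC8 has 1 annotated pseudogene, DNAJC8P1, with the same limit on shared reads as for DNAJA1.

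DNAJC7, a co-chaperone with tetratricopeptide repeats that binds both HSP70 and HSP90, had fewer footprints per kilobase in the mutant. It was at 186, 218, 163 and 158 RPKM, with both mutant libraries below both wild type libraries. Exons of CNP and NKIRAS2 on the opposite strand overlap 6.61% and 5.20% of the DNAJC7 coding sequence. Against wild type the mutant stood at −0.17 [−0.43, 0.09] drug-free and at −0.53 [−0.74, −0.32] under the drug, and the drug responses of 0.24 [0.10, 0.38] and −0.09 [−0.40, 0.21] differed by −0.34 [−0.67, −0.01]. DNAJC9, a histone chaperone, was at 163, 179, 186 and 161 RPKM, and none of its ratios was beyond counting error. FAM149B1 exons overlap 26.2% of its coding sequence on the opposite strand.

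DNAJC24, which takes part in making the diphthamide residue of elongation factor eEF2, stood on opposite sides of 0 with the drug. It was at 39.0, 20.9, 22.1 and 49.2 RPKM from 52, 24, 6 and 22 reads, highest in the mutant with erythromycin and lowest in wild type with it. Erythromycin over none was −0.85 [−1.65, −0.16] in wild type cells and 1.07 [−0.24, 2.70] in mutant cells, a difference of 1.92 [0.46, 3.33]. Mutant over wild type with the drug was 1.14 [0.27, 2.07], at least 2-fold higher, where 7.02% of all genes were.

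The remaining class C members lay within counting error in each comparison. DNAJC21, a factor of ribosome biogenesis, was at 35.7, 37.3, 26.8 and 34.3 RPKM. DNAJC12, which helps fold aromatic amino acid hydroxylases, was at 38.8, 38.2, 31.3 and 33.7 RPKM. DNAJC17, linked to splicing, was at 15.8, 15.0, 18.1 and 20.9 RPKM.

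Members at vesicles showed 1 difference beyond counting error. DNAJC5, the cysteine-string protein of secretory vesicles, was at 95.5, 86.5, 88.7 and 72.5 RPKM, lowest in the mutant with the drug, with −0.31 [−0.85, 0.19] for mutant over wild type there. DNAJC6, the auxilin that strips clathrin coats, was at 5.79, 9.54, 6.25 and 7.26 RPKM, and erythromycin over none in wild type was 0.65 [0.19, 1.29].

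Members of the endoplasmic reticulum and secretory membranes went both ways. DNAJB12, a membrane-anchored partner of HSC70 in protein degradation, was at 53.7, 48.0, 48.4 and 36.8 RPKM, and its relative DNAJB14 at 20.4, 20.3, 11.6 and 16.8 RPKM. No ratio of either was beyond counting error. DNAJC1, an ER protein that binds the ribosome from the membrane side, was at 17.6, 24.0, 25.8 and 23.0 RPKM, lowest in wild type without the drug. Its response to erythromycin was 0.44 [0.03, 0.89] in wild type cells and −0.22 [−0.98, 0.56] in mutant cells.

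DNAJC14 was at 14.6, 10.0, 13.3 and 19.6 RPKM, lowest in wild type with erythromycin and highest in the mutant with it. The drug gave −0.48 [−1.04, −0.02] in wild type cells and 0.47 [−0.35, 1.41] in mutant cells, a difference of 0.95 [0.05, 1.93], and mutant over wild type with the drug was 0.84 [0.28, 1.52]. The gene AC023055.1 shares 46.2% of its coding sequence on the same strand, so its reads are uncertain. DNAJC16 was at 4.02, 6.0, 11.3 and 8.14 RPKM from 28, 36, 16 and 19 reads, and mutant over wild type without the drug was 1.31 [0.53, 2.45], at least 2-fold higher, where 5.29% of all genes were. DNAJC18 and DNAJC22 lay within counting error, between 26.2 and 30.1 RPKM and between 5.92 and 9.67 RPKM.

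Of the mitochondrial members, 2 could be compared. DNAJC11, a component of the cristae-organizing machinery, was at 61.8, 69.4, 73.9 and 94.7 RPKM, with both mutant libraries above both wild type libraries. The ratio of mutant to wild type was 0.28 [−0.10, 0.65] drug-free and 0.38 [0.10, 0.67] under erythromycin. DNAJC30, which acts with the ATP synthase machinery, was at 47.5, 25.9, 29.1 and 22.2 RPKM, highest in wild type without the drug, and the wild type response to erythromycin was −0.84 [−1.41, −0.34]. BUD23 exons on the opposite strand overlap 53.0% of its coding sequence.

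**Figure D4:**
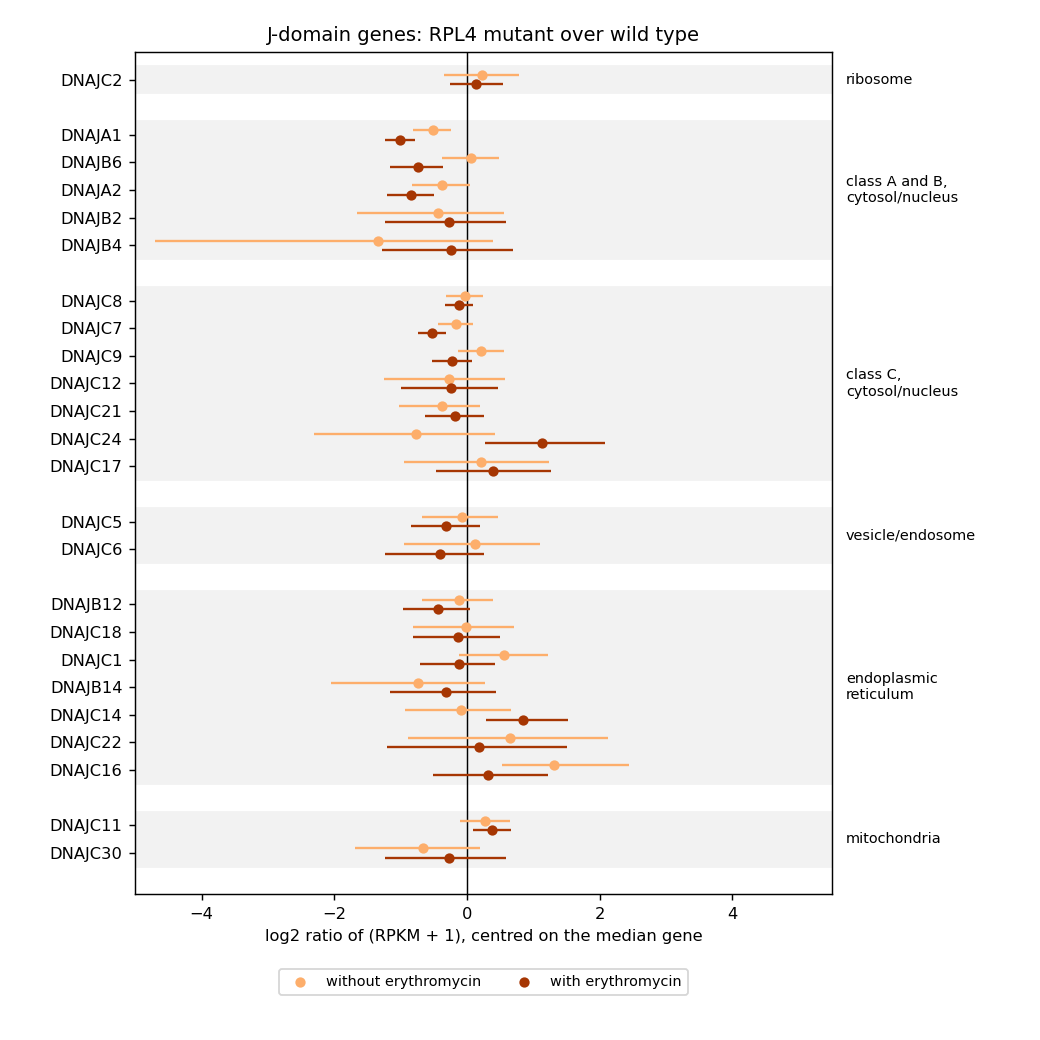
RPL4 mutant over wild type for each tested member, as log2 ratio of RPKM plus 1 centred on the median gene, without erythromycin (light) and with it (dark), with bars for 95% counting intervals. With erythromycin DNAJA1, DNAJA2, DNAJB6 and DNAJC7 lie left of 0 with their whole interval and DNAJC11, DNAJC14 and DNAJC24 lie right of it.

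Counted over all classes, the mutant had fewer members above 0 than below. Without erythromycin 15 of 24 were below 0, where 50.0% of all genes were, with a median of −0.09. Scaled to a common sum, which shifts the median of all genes by 0.08, 12 were below. Beyond counting error DNAJA1 was lower (4.17% of members, where 9.3% of genes were) and DNAJC16 higher (4.17%, where 9.49% were). DNAJB4 was the member at least 2-fold lower, where 3.32% of genes were. With erythromycin 17 were below 0, again against 50.0%, with a median of −0.23. The common sum shifts all genes by 0.14 there and leaves 14 below. Beyond counting error 4 were lower (16.7%, where 16.9% of genes were) and 3 higher (12.5%, where 16.1% were). These shares are at or under those of all genes. By class, the median with erythromycin was −0.74 for the 5 tested class A and B members, −0.18 for 7 class C members, −0.36 for 2 vesicle members, −0.12 for 7 ER members and 0.05 for 2 mitochondrial members.

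The responses to erythromycin differed between the genotypes, mutant minus wild type, by a median of −0.09. In 10 members the difference was above 0, where 50.3% of all genes were, and in 14 below, where 49.7% were. Beyond counting error it was above 0 for DNAJC14 and DNAJC24 (8.33%, where 8.72% of genes were) and below 0 for DNAJA1, DNAJB6 and DNAJC7 (12.5%, where 10.6% were). DNAJB4 and DNAJC24 were at least 2-fold higher, where 8.34% of genes were, and 0 members lower, where 5.58% were.

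Both treatments gave the same sign for mutant over wild type in 18 members. Of these, 13 were below 0 in both, where 29.7% of genes were, and 5 were above, where 29.7% were. The 13 included DNAJA1, DNAJA2, DNAJB2, DNAJB4, DNAJC7 and DNAJC8, and the 5 were DNAJC2, DNAJC11, DNAJC16, DNAJC17 and DNAJC22. DNAJA1 was the member whose intervals left out 0 in both treatments, where 4.87% of genes were lower in this way.

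In limma's additive model 0 of 24 members passed for erythromycin and 0 for the mutant at an adjusted p of 0.05. Among all 9612 genes, 0.218% rose and 0.0104% fell with erythromycin, and 1.5% rose and 0.427% fell in the mutant. At an unadjusted p under 0.05 there were 2 members for each, DNAJB4 and DNAJC30 for erythromycin and DNAJA1 and DNAJA2 for the mutant. Of all genes, 3.71% were higher and 2.5% lower at that p for erythromycin, and 5.88% and 7.58% for the mutant. The model has 1 residual degree of freedom and is exploratory.

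HSP70 proteins, which these co-chaperones serve, were lower in the mutant under erythromycin. Of 7 listed, 5 were tested, and with erythromycin 5 of 5 were below 0 beyond counting error, where 16.9% of all genes were, with a median of −0.70. Of these HSPA2 had a mean of 5.76 RPKM, with 4 reads in the mutant with the drug, and its drug-free ratio was 0.77 [−0.38, 2.06]. HSPA8, the constitutive HSC70, was at 825, 1114, 536 and 510.3 RPKM and fell over both treatments (log2 estimate −0.94, SE 0.19, limma, adjusted p = 0.0141). HSPA1A, HSPA1B, HSPA2 and HSPA14 did not pass (limma, adjusted p = 0.499, 0.360, 0.753 and 0.523). HSPA1A and HSPA1B are near-identical copies, and reads shared between them make each value uncertain. The HEK293 marker sum was lowest in the same library, the mutant with erythromycin, though EMX2 was highest there. The part of the sum in these values was not tested.

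Nucleotide exchange factors, which release ADP from HSP70, were mostly lower there too. Of 8 tested, 7 were below 0 in the mutant with erythromycin, where 50.0% of all genes were, with a median of −0.96. Beyond counting error 6 were lower, where 16.9% of all genes were. BAG3 was at 52.7, 53.2, 17.2 and 19.2 RPKM and fell over both treatments (log2 estimate −1.56, SE 0.273, limma, adjusted p = 0.00436). HSPH1 was at 39.6, 54.2, 24.3 and 22.6 RPKM, and it did not pass (log2 estimate −1.02, SE 0.283, limma, adjusted p = 0.0858). Of 3 HSP70 adaptors, ST13 (−0.66 [−0.85, −0.47]) and STIP1 (−0.84 [−1.03, −0.66]) were lower with the drug and the ubiquitin ligase STUB1 (0.31 [0.06, 0.56]) higher.

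The other 10 listed members stayed under the mean of 5 RPKM. DNAJB5 lay just under it at a mean of 4.67 RPKM, and DNAJC6 just over it at 7.21. Mean levels were 4.00 for DNAJB13, 3.87 for DNAJC27, 3.66 for DNAJC25, 3.52 for DNAJC4, 1.92 for DNAJC13 and 1.46 for DNAJC28. DNAJB7, DNAJA4 and DNAJC15 had no more than 2 reads in any library. Counts of 0 occurred for 1, 2, 4 and 2 members in the order of libraries. DNAJC25 had 17 of 2965243 reads in wild type without the drug and 0 of 604506 in the mutant without it. A count of 0 allows up to 3 reads, and the counting interval of this ratio runs up to 0.27, so it includes 0. The gene DNAJC25-GNG10 shares 31.1% of its coding sequence on the same strand.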

How the data were processed

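Ribosome footprints from 4 HEK293 libraries were analysed, 1 per group. Per the submitters' processing notes cutadapt, STAR and GRCh38 were used, while the name of the read counter was not given in the sources used here. The deposited files hold 1 RPKM value per Ensembl transcript, made by the authors, with transcripts at 0 not listed. Of 16292 transcripts, 16172 matched GENCODE 29. RPKM times coding length gave whole reads (within 0.001) for 99.2% of matched transcripts in each library and for all 34 members, which yielded the library totals.

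Only genes averaging 5 RPKM or more were kept, and log2(RPKM + 1) ratios were centred on the median gene. Ratio intervals are 95% exact binomial. The interval for the difference of responses is a normal approximation on log counts. limma 3.58.1 (R 4.3.3) was fitted to log2 values centred per library, with genotype and treatment as additive terms, trended variance, and Benjamini-Hochberg adjustment over 9612 genes. Scripts were tested on simulated data. Any member above the minimum mean could be named. The members, classes and lists were chosen with earlier results of these data known. Comparisons that share a library are not independent. Alternatives were the pseudocount, the minimum mean, the scaling and the model.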

Additional observations from a re-analysis of the deposited data

Results flagged for a closer look

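In 5 members the centred erythromycin ratios had opposite signs in the 2 genotypes and the counting interval of their difference left out 0. The difference, mutant minus wild type, was −0.47 for DNAJA1, −0.79 for DNAJB6 and −0.34 for DNAJC7, which were higher with the drug in wild type. Their mutant ratios were −0.02, −0.48 and −0.09, and that of DNAJA1 was 0.03 with values as deposited. The same difference was 1.92 for DNAJC24 and 0.95 for DNAJC14, which were lower with the drug in wild type, with mutant ratios of 1.07 and 0.47. The counting interval of the mutant ratio included 0 in all 5. Of all tested genes, 10.6% had an interval of this difference below 0 and 8.72% above 0. With 1 library per group, the difference was not tested against the spread between cultures.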

How the results depend on the processing

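No paired analysis was possible because each group has 1 library and the labels number no replicates. The medians of members moved by less than their counting error in all 5 comparisons under each of the 7 alternatives, and 0 single members that were beyond counting error reversed. Some medians still moved by over 1.5 times or switched sign. For erythromycin in wild type 0.14 became 0.03 with no filter. For mutant over wild type without the drug −0.09 became −0.0018 with a common sum, −0.05 with a minimum of 20 RPKM, −0.15 with a minimum of 1 RPKM and −0.17 with no filter. With the drug −0.23 became −0.09 with a common sum and −0.12 with a minimum of 20 RPKM. For erythromycin in the mutant −0.03 became 0.10 with a minimum of 1 RPKM and with no filter, −0.07 with a minimum of 20 RPKM, 0.03 as deposited and 0.0024 with a common sum. For the difference of responses −0.09 became 0.04 with a minimum of 1 RPKM, 0.15 with no filter, −0.02 as deposited and −0.05 with a common sum. Counts of members at least 2-fold apart are small and moved. For erythromycin in wild type the count of 0 became 1 with a minimum mean of 1 RPKM and with no filter. For erythromycin in the mutant the count of 2 became 1 with a pseudocount of 5 RPKM and with a minimum mean of 20 RPKM, 5 with a minimum of 1 RPKM and 6 with no filter. For mutant over wild type without the drug the count of 2 became 0 with a pseudocount of 5 and a minimum of 20 RPKM, and 4 with a minimum of 1 RPKM or no filter. With the drug the count of 2 became 1 with a pseudocount of 5 RPKM, a minimum of 20 RPKM, values as deposited or a common sum, and 4 with no filter. For the difference of responses the count of 2 became 4 with a pseudocount of 0.1 RPKM, 1 with a pseudocount of 5 or a minimum of 20 RPKM, 5 with a minimum of 1 RPKM and 6 with no filter. A lower minimum adds members and a higher one removes them, and the other causes were not tested. In limma the count of 0 for the mutant became 1 (DNAJA1) with a pseudocount of 0.1 RPKM and with a minimum of 1 RPKM, and for erythromycin it was 0 under each of the 9 alternatives. Over all genes limma passed 22 for erythromycin and between 0 and 64 under the alternatives, and 185 for the mutant and between 54 and 324. Depth limits the mutant without erythromycin most.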

Other observations

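The 7 J-domain genes that the rule left out gave the following values. In wild type with erythromycin 5 of 7 were above 0, where 50.0% of all genes were, with a median of 0.30. Beyond counting error 4 were higher, where 14.2% of all genes were. DNAJB1, the HSF1-driven class B protein, was at 178, 227, 116 and 175 RPKM, with 0.37 [0.20, 0.54] for erythromycin in wild type and 0.53 [0.13, 0.95] in the mutant. Its mutant over wild type ratio was −0.58 [−0.96, −0.23] without and −0.44 [−0.69, −0.19] with the drug. DNAJB9, an ER protein of the unfolded protein response, was at 5.52, 15.1, 17.2 and 13.5 RPKM from 11, 26, 7 and 9 reads, lowest in wild type without the drug. J-domain proteins under other symbols showed no ratio beyond counting error: SEC63 of the ER translocon was at 44.9, 51.6, 44.2 and 46.7 RPKM, the clathrin uncoating kinase GAK at 13.3, 10.9, 9.25 and 12.5 RPKM and HSCB, which serves iron-sulfur cluster assembly, at 49.1, 39.8, 30.4 and 39.8 RPKM.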
